A study of Oryzias latipes and Danio rerio with 6 samples.

Results

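In medaka, 1311 regions on the inner parts of the 24 chromosomes were listed for Yap1 and not for Yap1b, out of 52712 regions in all 8 lists of the series. They were the Yap1 regions with 0 bp of overlap with any Yap1b region, taken where the midpoint lay more than 1 Mb from both ends of a chromosome. These 1311 made up 40.5% of the 3241 inner Yap1 regions (Wilson 95% interval 38.8 to 42.2). The other 1930 inner Yap1 regions overlapped a Yap1b region and are called shared below. The regions outside the inner parts were left out by the same rule. Of the 257 Yap1 regions at chromosome ends 121 had no Yap1b counterpart (47.1%), and of the 714 on unplaced sequences 328 had none (45.9%). This held for 1432 of the 3498 Yap1 regions on assembled chromosomes (40.9%) and for 1760 of the 4212 in the whole list (41.8%).

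The lists came from iDamID-seq of wild-type medaka embryos (Oryzias latipes) that had been injected with mRNA for the bacterial adenine methylase Dam joined to Yap1, to Yap1b or to GFP. The samples are labelled stage 16, while the protocol text names 80% epiboly. DNA was taken from whole embryos, 40 for each of 3 replicates, so the regions are a mixture over all cell types. The injected mRNA is an added copy of the factor that is not under the control of its own gene. Each fusion was represented by 1 sample, and the lists carry no values per replicate. For each factor a positive list was used, together with the Dam-GFP control list paired with it. Both pairs of lists rest on the same 1 Dam-GFP sample. How far this bears on the positions that the Yap1 and Yap1b lists have in common was not tested. The read depth behind a region was unknown, the intervals given here cover counting of regions only, and neighbouring regions are not independent.

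Yap1 is a transcriptional co-activator at the end of the Hippo pathway, a kinase cascade that limits organ growth. When the cascade is inactive, Yap1 enters the nucleus and, having no DNA-binding domain of its own, reaches DNA through partner proteins, chiefly the TEAD factors. Yap1b is a relative of Yap1 found in teleost fish, which the study describes as differing in its activation domain. Dam marks adenines in GATC sequences near the place where the fused protein touches chromatin, and an injected Dam-GFP gives the marks that Dam leaves without a chromatin-bound partner. The comparison of both positive lists bears on how far the paralogues occupy the same places. The Yap1-only regions were chosen by the positions listed for Yap1 and for Yap1b, so their scores, lengths and neighbours are given as a description without a test. A region that is absent from the Yap1b list has no value there, so a Yap1b signal under that list's threshold cannot be told apart from none. No medaka genome of the lists' build was used here, so positions were not tied to genes and no sequences are shown. All positions are counted from 1.

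Counted in bp, very small overlaps were absent at the limit between the Yap1-only and the shared regions. The overlap is here the largest one with a single Yap1b region. In 183 of the 1930 shared regions (9.48%) the overlap was smaller than the part of the Yap1 region left uncovered. The smallest overlap among the 1930 shared regions was 200 bp, which was also the length of the shortest region, and the median overlap was 806 bp. In 1179 shared regions both edges were the same in the Yap1 and the Yap1b list. The 3 smallest overlaps lay at chr9:24222686-24222885 (200 bp), chr2:17090245-17090446 (202 bp) and chr6:17871407-17872826 (202 bp). The first of these had a score of 89, the second 243 and the third 210. The score is the authors' whole number per region, whose quantity was not stated, and it is used here to rank regions within the Yap1 list. On the other side of the limit, the smallest gap between a Yap1-only region and a Yap1b region was 4 bp, the length of 1 GATC site. The 3 highest scores at this gap belonged to regions at chr4:7819547-7819936 (score 260), chr10:6972565-6974333 (score 184) and chr4:27011442-27011954 (score 178). No shared region had a largest overlap of less than 200 bp, and smaller further overlaps of the same region were not read. In the 3 named cases the overlap took in the whole Yap1b region, which on chromosome 6 lay at chr6:17871407-17871608. Whether the lower bound was set by the shortest length in the lists was not tested over all shared regions.

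At the 1 Mb limit the Yap1-only regions nearest to the inside lay at chr24:23134512-23135431 (score 87), chr19:22328906-22329183 (score 103) and chr18:1012590-1013203 (score 171). The nearest outside it lay at chr24:23146276-23147219 (score 128), chr10:973008-976225 (score 85) and chr2:30096592-30097158 (score 96). The chromosome ends used for this limit were the largest region ends over the 4 medaka lists, so the true ends may lie further out.

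Yap1-only regions scored low for the Yap1 list. Their scores ran from 79, the lowest value of the list, through a median of 104 (quartiles 89 and 135) to 753. The shared regions ran from 79 through 141 (quartiles 106 and 209) to 935. The lowest score of the Yap1b list was 112, so the lists began at different values. Whether their scores are on the same scale was unknown, and they were not compared. Scores up to 90 were held by 372 of the 1311 Yap1-only regions (28.4%, 26.0 to 30.9) and by 201 of the 1930 shared regions (10.4%, 9.13 to 11.9). Scores over 300 were held by 18 Yap1-only regions (1.37%, 0.870 to 2.16) and by 207 shared regions (10.7%, 9.42 to 12.2). The ranges overlapped over nearly their whole extent, so a low score did not by itself mark a region as Yap1-only. Restricting the Yap1 list to scores above its median left 436 Yap1-only regions, 27.0% of the inner regions that remained. Restricting the Yap1b list in this way as well gave 693, or 43.0%. That rise was set by the removal of Yap1b regions, since Yap1 regions that overlapped them then counted as Yap1-only.

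**Figure D1:**
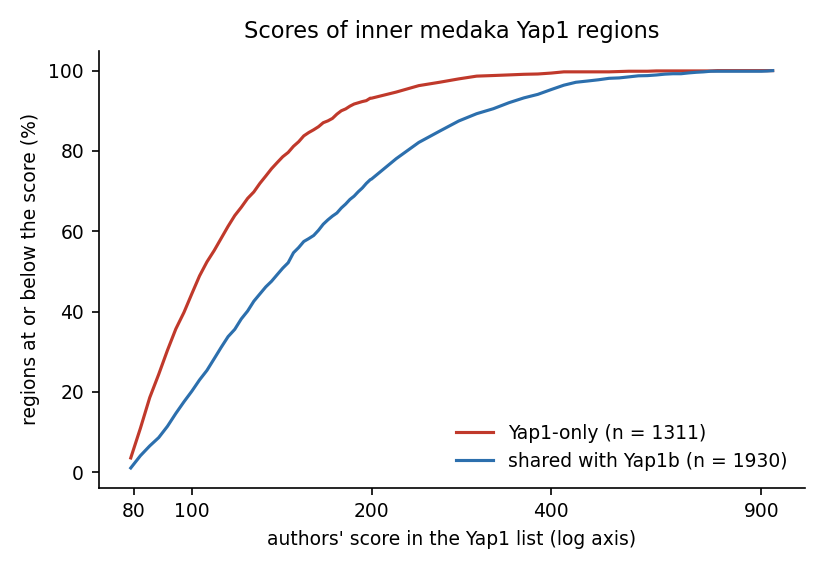
Cumulative share of inner medaka Yap1 regions (vertical axis, percent) at or below each authors' score (horizontal axis, log scale), for 1311 Yap1-only regions and 1930 shared regions. The Yap1-only curve lies to the left, with a median of 104 against 141 for shared regions.

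A few Yap1-only regions nevertheless ranked among the top-scored of the list. Of the 50 top-scored inner Yap1 regions 4 were Yap1-only (8%, 3.15 to 18.8), and of the top 100 there were 8. The top 200 held 17, the top 500 held 71 (14.2%, 11.4 to 17.5) and the top 1000 held 199 (19.9%, 17.5 to 22.5). The share thus stayed near 8% through the top 200, down to a score of 320, and was higher in the longer ranks.

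The highest score, 753, belonged to a region of 399 bp at chr9:25282086-25282484, which ranked 4 among all inner Yap1 regions. Its nearest Yap1b region lay 27.0 kb away and was itself shared with Yap1. The next was a region of 1924 bp at chr18:10016023-10017946 (score 581), whose nearest Yap1b region was 210.0 kb away. A region of 1565 bp at chr16:19249304-19250868 scored 526, with a Yap1b region at 21.0 kb. A region of 858 bp at chr3:26207080-26207937 scored 504, with a Yap1b region at 14.6 kb. Those 4 were the Yap1-only regions within the top 50.

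The remaining 6 of the 10 top-scored Yap1-only regions scored from 395 to 415. They lay at chr3:34064313-34065996, chr22:17125054-17125678, chr4:8464045-8464792, chr23:13663180-13663631, chr8:23320939-23323561 and chr19:10436673-10438615. Lengths over the 10 ran from 399 to 2623 bp, with a median of 1211.5 bp. Gaps to the nearest Yap1b region ran from 1.65 to 210.0 kb, with a median of 43.3 kb. The region on chromosome 19 was the one of the 10 with a Yap1b region within 10 kb.

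Yap1-only regions were shorter at the median than shared ones. Length is not independent of the rule, since a longer region has more bases that can overlap a Yap1b region. Their lengths ran from 200 bp through a median of 838 bp (quartiles 512.5 and 1423) to 5364 bp. Shared regions ran from 200 bp through 1010 bp (quartiles 554 and 1547.75) to 8286 bp. The inner Yap1b-only regions, the mirror set with 1090 members, had a median of 954 bp. Control regions had medians of 826 bp for the list paired with Yap1 and 806 bp for the list paired with Yap1b. In all, the Yap1-only regions covered 1348 kb and the shared regions 2226 kb.

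Short regions were most frequent among the Yap1-only set. Of its members 111 were under 300 bp (8.47%, 7.08 to 10.1), against 107 shared regions (5.54%, 4.61 to 6.66), 56 Yap1b-only regions (5.14%, 3.98 to 6.61), 5 of 3484 inner Yap1 control regions (0.144%) and 5 of 2437 inner Yap1b control regions (0.205%). The 5 longest Yap1-only regions were of ordinary score. They lay at chr16:24650645-24656008 (score 110), chr4:15582589-15587147 (score 102), chr24:6746327-6750843 (score 79), chr3:2707953-2712020 (score 117) and chr22:5187881-5191822 (score 97). All 5 scored below 122, the median of the inner Yap1 regions, and the one on chromosome 24 stood at the lowest score of the list.

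Length and score were then crossed. Among inner Yap1 regions scored over 122, the Yap1-only share was 34.7% (26.1 to 44.3) below 300 bp and 32.6% (27.8 to 37.7) from 300 bp to below 600 bp. It was 30.1% (25.6 to 35.0) from there to below 1000 bp, 24.1% (20.9 to 27.6) to below 2000 bp and 16.2% (11.5 to 22.3) from 2000 bp upwards. Among regions scored up to 122 the same classes gave 65.0% (56.0 to 73.0), 52.7% (47.8 to 57.5), 54.4% (49.3 to 59.3), 53.1% (49.0 to 57.1) and 48.6% (40.4 to 56.8). At the higher scores the share was lower with each step of length, and the intervals of the shortest and the longest class did not overlap. How far this was set by the overlap rule, which longer regions meet less easily, was not tested. At the lower scores the interval of the shortest class overlapped those of the others by little, and the other 4 classes overlapped one another. Within the Yap1-only regions the median score differed little by length, from 103 to 106 over the 5 classes, while in the shared regions it ran from 130 to 156. Of the 179 regions of at least 2000 bp scored over 122, 29 were Yap1-only.

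**Figure D2:**
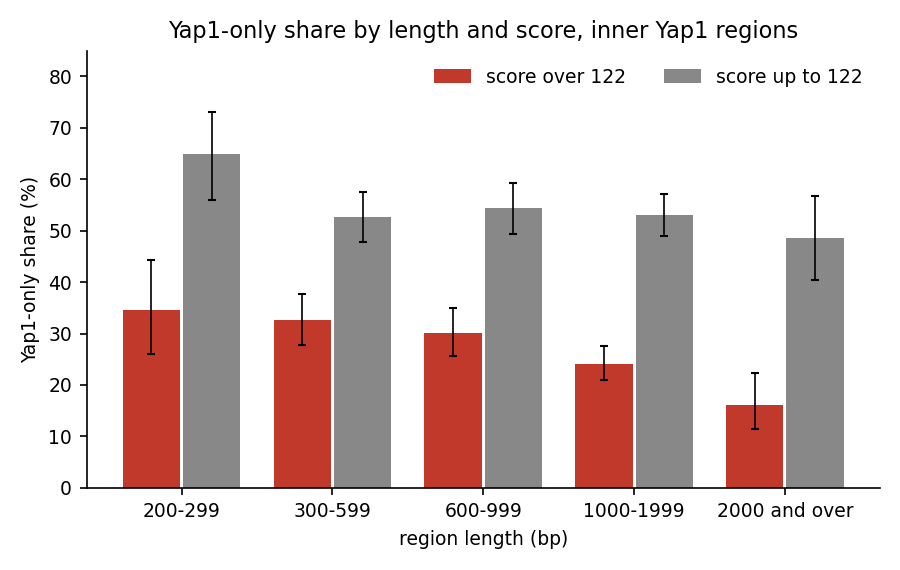
Share of inner Yap1 regions that are Yap1-only (vertical axis, percent) in 5 length classes (horizontal axis, bp), for scores over 122 and up to 122. Bars are shares and lines are Wilson 95% intervals. The share among higher scores is 34.7% in the shortest and 16.2% in the longest class.

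As deposited, Yap1-only regions lay nearer to Yap1b regions than control regions did, without touching them. No test was run on this difference, and the control regions paired with Yap1b come from the same comparison as the Yap1b list itself. The median gap to the nearest Yap1b region was 50.8 kb for Yap1-only regions (quartiles 16.8 and 137.6 kb), against 79.4 kb for the Yap1 control regions and 79.6 kb for the Yap1b control regions. A Yap1b region within 10 kb was found for 247 Yap1-only regions (18.8%, 16.8 to 21.0), against 9.44% (8.52 to 10.5) of the Yap1 control and 8.90% (7.84 to 10.1) of the Yap1b control regions. Shared regions had a further Yap1b region within 10 kb, beside the one they overlapped, in 23.5% (21.7 to 25.5). In the mirror set, 21.2% (18.9 to 23.7) of Yap1b-only regions had a Yap1 region within 10 kb. The Yap1-only regions were thus placed between the control and the shared regions at this distance. Within 100 kb, a Yap1b region was found for 67.7% of Yap1-only regions (65.1 to 70.1), 57.6% of Yap1 control regions and 57.2% of Yap1b control regions. Shared regions had a further Yap1b region within 100 kb in 70.4% (68.3 to 72.4), which overlaps the Yap1-only interval. Within 50 kb these intervals overlapped too (46.6 to 52.0 against 49.4 to 53.9), as they did within 1 kb (3.50 to 5.76 against 4.89 to 6.99). The separation from shared regions at 10 kb was thus not seen at those distances. The most isolated Yap1-only region lay 1511 kb from any Yap1b region. Merging the regions of each positive list within 10 kb gave 6.71% of 1073 Yap1-only regions (5.36 to 8.37), below the control shares of 9.44% and 8.90%. That lower share was largely set by the merging itself, which placed 172 of the 247 near regions, and 3 of the other 1064, in a merged region that overlapped Yap1b, while control regions were not merged. It is therefore no check on the nearness. The share was 28.8% when an overlap had to cover 50% of the Yap1 region. That rise was set by the rule, since 183 regions whose largest overlap with a Yap1b region covered under 50% then counted as Yap1-only and as near. It is therefore no check on the nearness either. With only the Yap1 list restricted to scores above its median, the share was 17.0% of 436 Yap1-only regions (13.7 to 20.8). The Yap1b and control lists were then unchanged, so the control shares of 9.44% and 8.90% could not move. Those 436 regions are a part of the same Yap1-only set, so their share is no separate check on the nearness. With both positive lists restricted to scores above their medians, the share was 10.7% of 693 regions, against 4.71% of Yap1 control and 4.47% of Yap1b control regions. Those 693 included regions that overlap a deposited Yap1b region removed by the restriction, so they are not all Yap1-only as deposited.

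**Figure D3:**
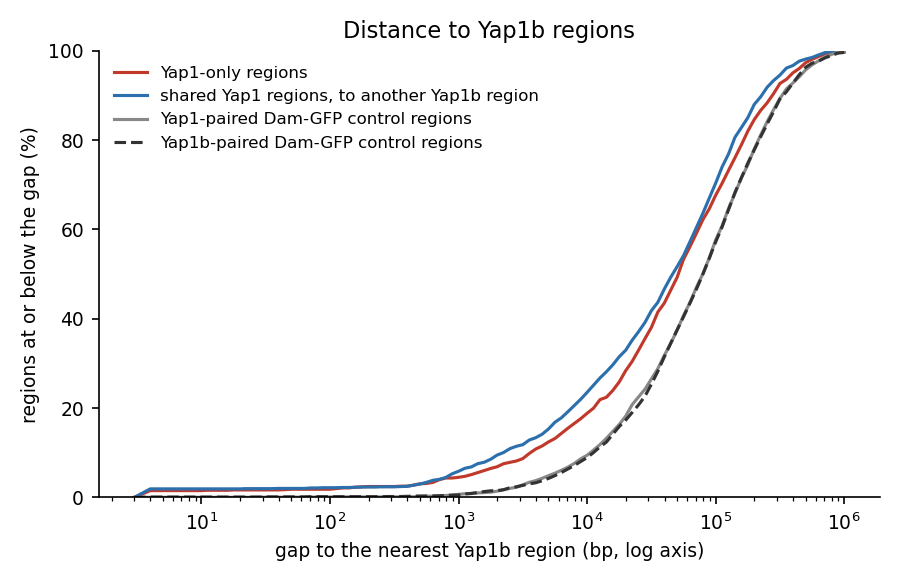
Cumulative share of regions (vertical axis, percent) whose nearest Yap1b region lies within the gap on the horizontal axis (bp, log scale). Lines stand for Yap1-only regions, shared regions measured to a Yap1b region they do not overlap, and the inner control regions of both lists. At 10 kb the Yap1-only line stands at 18.8%, the shared line at 23.5% and the control lines at 9.44% and 8.90%.

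The nearness was alike over the scores of the Yap1-only regions. In 4 equal score classes of the members, 18.6%, 21.0%, 18.0% and 17.7% had a Yap1b region within 10 kb, with overlapping intervals, and median lengths of 844.5, 852, 855 and 821.5 bp. The 247 Yap1-only regions had 226 different Yap1b regions as their nearest, of which 143 were themselves shared with Yap1 (63.3%, 56.8 to 69.3) and 83 were Yap1b-only. Among all inner Yap1b regions 63.9% were shared, close to the makeup of these neighbours.

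At the shortest distance most Yap1b neighbours were shared ones. At the gap of exactly 4 bp stood 20 Yap1-only regions, while 4 more had gaps of up to 100 bp. For 18 of those 20 the Yap1b neighbour was shared, and the same 18 also stood 4 bp from a shared Yap1 region. Those 18 regions thus adjoined a region listed for both factors, with room for a single GATC site between them. The scores of the 20 ran from 79 through a median of 98.5 to 260, and their median length was 501.5 bp. Including the Yap1 list itself, 43 Yap1-only regions (3.28%, 2.44 to 4.39) stood 4 bp from another Yap1 region, against 116 of the shared regions (6.01%, 5.03 to 7.16). A control region stood at this gap for 2 Yap1-only regions. The bases in the gaps were not read.

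No Yap1-only region overlapped a control region of either list, while 1 shared region overlapped a Yap1b control region. Both control lists come from the same comparisons as the positive lists and rest on 1 Dam-GFP sample. The lack of overlap may thus have been set by how the lists were made. No conclusion is drawn from it on the absence of these regions from the Yap1b list. A Yap1b control region lay within 10 kb of 116 Yap1-only regions (8.85%, 7.43 to 10.5), against 144 shared regions (7.46%, 6.37 to 8.72), with overlapping intervals. A Yap1 control region lay within 10 kb of 10.5% of Yap1-only regions (8.91 to 12.2) and 11.0% of shared regions (9.67 to 12.5).

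Most Yap1-only regions had no other Yap1-only region close by. Joined to one another at gaps of up to 10 kb, 1148 of the 1311 stayed single, and 163 (12.4%) fell into 80 clusters, of which 78 were pairs. The largest held 4 members within 14980 bp, at chr13:18052785-18067764, with scores of 134, 181, 154 and 117 in order along the chromosome. The next held 3 members at chr15:27630385-27640266, with scores of 92, 85 and 99. Among the pairs, taken by their highest score, the first 3 lay at chr8:12311454-12313072 (scores 187 and 295), chr24:6614840-6618378 (scores 281 and 287) and chr15:2301735-2305756 (scores 275 and 100). None of these 5 clusters contained a shared Yap1, a Yap1b or a control region. Their members overlap none, so only the bases between members could hold such a region. In the pair on chromosome 8, members of 1041 and 523 bp filled most of the span of 1619 bp. The absence was thus set in part by the rule, and no conclusion is drawn from it. Counting Yap1 regions of either kind, 297 Yap1-only regions (22.7%, 20.5 to 25.0) had another within 10 kb. The shares to be found under an even spread were not computed. A shared Yap1 region lay within 10 kb of 168 Yap1-only regions (12.8%, 11.1 to 14.7), whereas 21.4% of shared regions (19.6 to 23.3) had another shared region that near. At a gap of 4 bp these were 20 Yap1-only regions (1.53%) and 97 shared regions (5.03%). The reverse held for Yap1-only neighbours within 10 kb, found for 12.4% of Yap1-only regions (10.8 to 14.3) and 8.76% of shared regions (7.58 to 10.1). With Yap1 scores above the list median, a shared Yap1 region lay within 10 kb of 7.34% of the Yap1-only regions. That restriction also removed shared Yap1 regions, so it is no check on this nearness.

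Along the chromosomes the Yap1-only and the shared regions were interspersed. Read in order, the Yap1-only regions formed 768 uninterrupted runs, of which 455 were single regions, and the longest were 5 runs of 7. The shortest of these 5 spanned 613 kb, at chr8:11856806-12469681, and had 2 Yap1b regions within its span, and the longest spanned 2746 kb, at chr24:14327443-17073470, with 5 Yap1b regions. In fixed windows of 1 Mb, 534 of 685 windows held at least 1 Yap1-only region, with a median of 2. The fullest window, singled out after its values were seen, ran from 31 to 32 Mb on chromosome 1, with 12 Yap1-only and 5 shared regions, 1 Yap1b-only region and 14 Yap1 and 9 Yap1b control regions. The scores of these 12 had a median of 116.5 and a highest value of 199. The window of the 4-member cluster on chromosome 13, from 18 to 19 Mb, held 8 Yap1-only and 2 shared regions, and 7 Yap1b-only regions. That window was picked for its cluster, so a high Yap1-only count follows from the choice. Regions listed for only 1 of the factors outnumbered the shared ones there.

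The density of Yap1-only regions averaged 1.94 per Mb of inner chromosome and ranged from 0.895 per Mb on chromosome 2 to 2.89 per Mb on chromosome 8. Shared regions ranged from 0.964 per Mb on chromosome 2 to 4.18 per Mb on chromosome 20. The Yap1-only share of the inner Yap1 regions averaged 40.5% ± 4.15 (SD over 24 chromosomes). It was highest on chromosome 2 (26 of 54 regions, 48.1%, 35.4 to 61.1), chromosome 18 (39 of 85, 45.9%, 35.7 to 56.4) and chromosome 1 (70 of 154, 45.5%, 37.8 to 53.3). It was lowest on chromosome 10 (32 of 118, 27.1%, 19.9 to 35.8), chromosome 20 (51 of 146, 34.9%, 27.7 to 43.0) and chromosome 6 (50 of 135, 37.0%, 29.4 to 45.4). The interval held the overall 40.5% on 23 of the 24 chromosomes, and chromosome 10 was the exception. Among 24 intervals of 95% a single exception can come from counting alone, and this was not tested. The median score of the Yap1-only regions on chromosome 10 was 106, near the middle of the chromosome medians, which ran from 95 to 119.

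**Figure D4:**
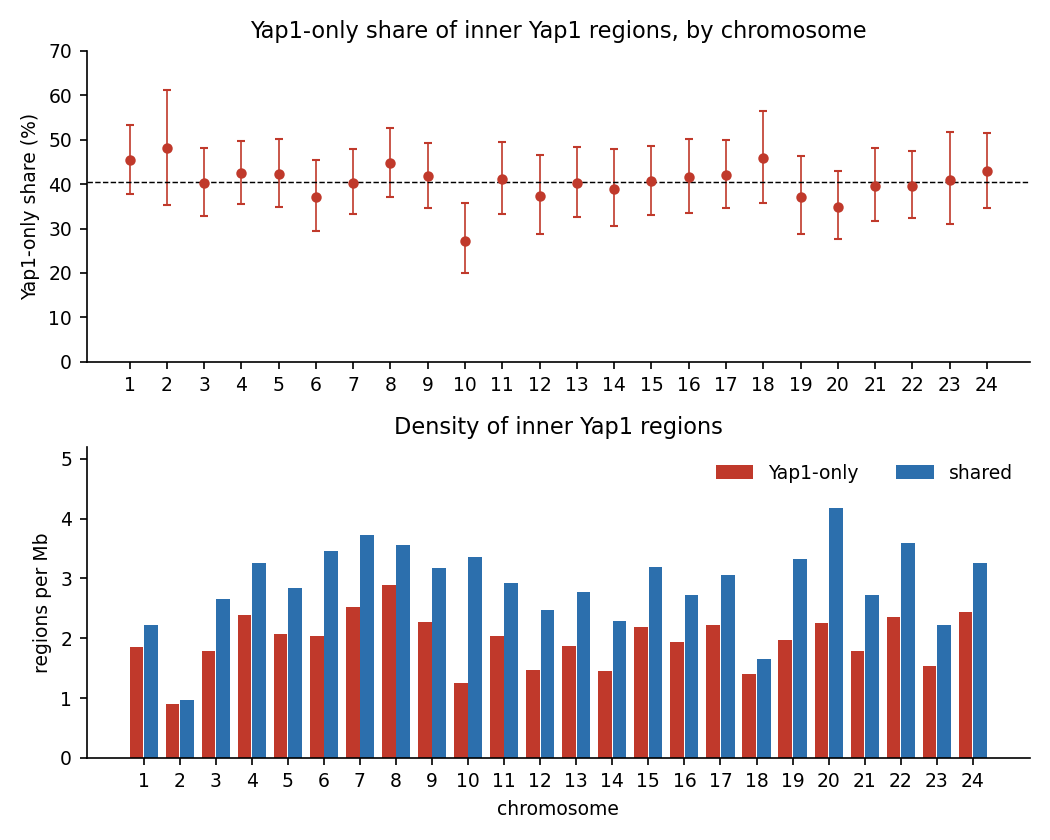
Upper panel, share of inner Yap1 regions that are Yap1-only (percent, Wilson 95% intervals) on each chromosome, with the overall 40.5% as a dashed line. Lower panel, Yap1-only and shared regions per Mb of inner chromosome. Chromosome 10 lies lowest in the upper panel, at 27.1%, and chromosome 2 has the lowest density of both kinds.

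On chromosome 10 the shared regions were not scarce, at 3.36 per Mb, while Yap1-only regions stood at 1.25 per Mb. The Yap1b-only share of its Yap1b regions was 34.8%, near the 36.1% of all inner Yap1b regions. On chromosome 8, noticed after its values were seen, 69 of 154 Yap1 regions were Yap1-only (44.8%, 37.2 to 52.7), and the interval held the overall 40.5%. Of its 108 Yap1b regions 20 were Yap1b-only (18.5%). That was the lowest Yap1b-only share of the 24 chromosomes, which ran up to 47.2% on chromosome 2. On chromosome 2 both shares were thus the highest, with few regions in each list.

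The Yap1-only share was highest within 1 Mb of the limit of the inner parts, though the intervals did not separate the classes. From 1 to 2 Mb from the nearer end it was 47.2% of 252 regions (41.1 to 53.4), from 2 to 4 Mb 44.0% (39.3 to 48.8), from 4 to 8 Mb 39.3% (36.2 to 42.4), from 8 to 12 Mb 38.5% (35.4 to 41.8) and beyond 12 Mb 40.1% (36.5 to 43.7). In the outermost class the share exceeded 40.5% on 17 of 24 chromosomes, and in the class from 2 to 4 Mb on 16. Further in it did so on 11 from 4 to 8 Mb, on 13 from 8 to 12 Mb and on 9 of 21 beyond 12 Mb. The intervals of all these classes overlapped one another. The density of Yap1-only regions was 2.48 per Mb in the outermost class and 1.83 to 1.99 per Mb in the other 4. Shared regions stood at 2.77 per Mb in the outermost class, 2.42 from 2 to 4 Mb and 2.82 to 3.08 further in. Median scores of the Yap1-only regions were 101, 102.5, 104, 106 and 105 from the outside in. Among regions scored over 122 the share was 32.2% and 32.0% in the outer classes and 24.7%, 24.8% and 28.7% in the inner ones, and among regions scored up to 122 it was 59.9%, 55.1%, 53.0%, 54.2% and 51.0%. The outermost class thus had the highest share among regions scored up to 122, while over 122 the outer classes were nearly equal. The mirror share, Yap1b regions without Yap1, was 40.3%, 39.6%, 33.5%, 34.9% and 37.7% over the same classes.

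**Figure D5:**
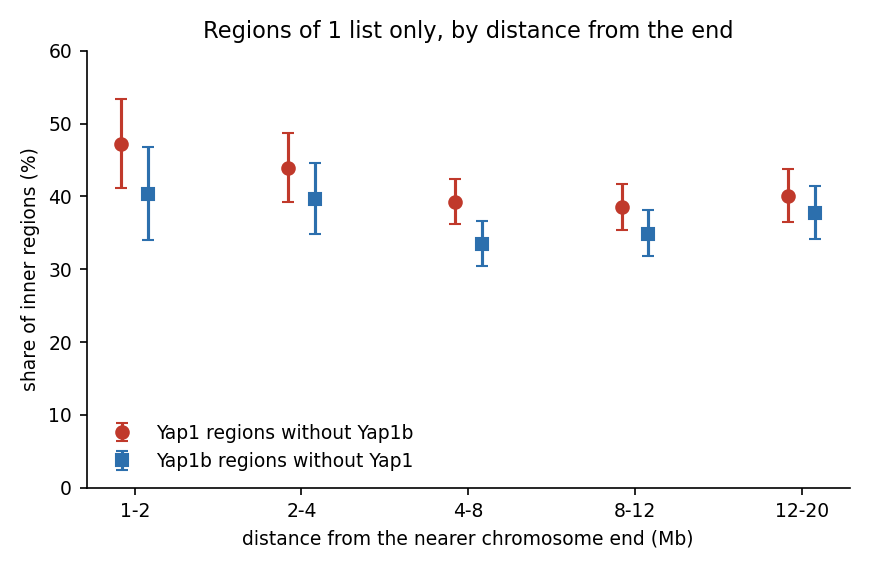
Share of inner regions found in 1 list only (vertical axis, percent) by distance from the nearer chromosome end (horizontal axis, Mb), for Yap1 regions without Yap1b and Yap1b regions without Yap1. Points are shares and lines are Wilson 95% intervals. Yap1-only shares run from 47.2% in the outermost class to 38.5% at 8 to 12 Mb.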

How the data were processed

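The 4 medaka region lists of 3 samples were used, and the zebrafish lists were only counted. The tools named in the submitters' processing notes are cutadapt, Bowtie2, SAMtools and bedtools, with no version. The only build those notes name is the zebrafish assembly GRCz10, also called danRer10. For medaka, neither the build nor the way regions were called, filtered or pooled over replicates is given in the sources used here. Each deposited list holds start, end and a score made by the authors, used only within its list. Per the labels' protocols, fragments were amplified by 25 cycles of PCR, so regions rest on amplified DNA.

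Regions were compared in Python 3.11.15 with pandas 2.3.3 and numpy 2.4.6. Overlap code was tested on simulated data and against bedtools 2.31.1. Wilson 95% intervals came from scipy 1.17.1, and figures from matplotlib 3.10.9. Every group is 1 sample, so no test was run. The members and the measures were chosen with earlier results of these data known. The text names the 10 top-scored and 5 longest members, the 5 clusters with most members (ties by highest score), 3 regions on each side of both limits, and the 3 chromosomes with the highest and lowest shares. Alternatives changed the overlap, score, length, end and merging rules. Motifs and genes were not analysed here.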

Additional observations from a re-analysis of the deposited data

How the results depend on the processing

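The 8 summary values were recomputed under 8 alternatives. Of 64 values, 37 stayed within the interval of the original (within 1.5 times for the number of regions) and 27 did not. Several moves were set by the alternative itself, such as the median score and the density after a score limit, or the median length after a length limit. The tally is therefore no measure of how firm the results are. All 8 summary values kept to the interval with an end limit of 2 Mb or none, as did the share with a Yap1b control region within 10 kb under all 8 alternatives. With the Yap1 regions scored above the median of their list, 436 regions remained, 27.0% of inner Yap1 regions, at 0.646 per Mb, with a median score of 154 and a shared Yap1 region within 10 kb for 7.34%. With both lists restricted in this way these were 693, 43.0%, 1.03 per Mb, 152 and 7.36%, with a median length of 890 bp and a Yap1b region within 10 kb for 10.7%. Those 693 included regions that overlap a deposited Yap1b region removed by the restriction. Both settings also removed shared Yap1 regions, so 7.34% and 7.36% are no check on the nearness to them. Counting a Yap1b region within 1 kb as shared gave a share of 38.6%, a Yap1b region within 10 kb for 15.0% and a shared Yap1 region for 9.74%. The 15.0% was set by that rule, which took the nearest regions out of the Yap1-only set. Requiring an overlap of 50% gave a share of 46.1%, 2.21 per Mb, a median length of 962.5 bp, a median score of 108 and a Yap1b region within 10 kb for 28.8%. Regions whose largest overlap with a Yap1b region falls short of 50% then count as Yap1-only. Regions of at least 300 bp gave a median length of 930 bp and 1.82 per Mb. Merging within 10 kb gave a share of 38.7%, 1.59 per Mb and a median length of 887 bp. A Yap1b region within 10 kb for 6.71% and a shared Yap1 region for 0% are set largely and wholly by that merging, which turns near regions into shared ones. The motif alternative was not run. No paired analysis was possible because each group had 1 sample and no result comes from a test, and no replicate could be left out. Read depth was unknown.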
